A study of Drosophila melanogaster with 3 samples.

Results

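The autophagy genes described here are 10 genes listed by name: Atg1, Atg5, Atg6, Atg7, Atg8a, Atg8b, Atg9, Atg13, Atg18a and Atg101, out of 13945 protein-coding genes annotated on the chromosomes covered. They were examined for the chromatin protein putzig (pzg) in Drosophila melanogaster embryos by chromatin immunoprecipitation and sequencing (ChIP-seq). All libraries came from a transgenic line, pzg-GFP, with GFP fused to the C-terminus of pzg, and from pooled male and female embryos 0 to 24 h old, so binding in single tissues or hours cannot be told apart. There were 3 biological replicates of this 1 group and no second condition. The labels conflict on what was sequenced, since a free-text note says input control while the antibody and assay fields say pzg ChIP-seq. The latter was taken.

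Autophagy encloses cytoplasm in a double membrane, the autophagosome, and delivers it to lysosomes. The Atg1 kinase complex starts the process, a phosphoinositide 3-kinase complex with Atg6 marks the growing membrane, Atg9 vesicles and Atg18a act at that membrane, and Atg7, Atg5 and their partners attach the ubiquitin-like protein Atg8 to its lipids. In the fly, autophagy is known from the larval fat body and salivary glands and from the response to starvation. Putzig is known from complexes with the promoter factors Trf2 and Dref and with the nucleosome remodelling complex NURF.

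A gene was called bound when the summit of a peak in the authors' reproducible list lay within 250 bp of any of its annotated transcription start sites (TSSs). By this rule 8 of the 10 genes were bound, and Atg8b and Atg101 were not. Among all protein-coding genes 5939 were bound, or 42.6%. In each replicate's own 6522 strongest entries, as many as the reproducible list holds, the same count of 8 of 10 was found, against 42.4%, 42.3% and 41.7% of all protein-coding genes in replicates 1, 2 and 3. Every one of the 8 reproducible summits also lay inside a strongest peak of all 3 replicates, as did those of 90.7% of all bound protein-coding genes. Another reading limits the comparison to the 6550 genes that had an entry of any strength at a TSS in every replicate. Of those 88.3% were bound, and the members among them were the same 8, all bound. Having such entries goes closely with being bound, and the limit itself leaves out Atg8b and Atg101, the unbound members. The count within that set was therefore almost fixed in advance and cannot set the members apart from the background.

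The Atg8a peak was the second strongest of the 6522 in the reproducible list. Atg18a followed at rank 812, and the other 6 bound members had ranks between 1739 (Atg5) and 3557 (Atg13). The median percentile of the 8 peaks, where 100 is the strongest, was 67.4, and it was 63.8 for all bound protein-coding genes. Over the replicates' own lists the median for the members was 68.9 ± 2.69 (SD, n = 3) and that for all bound genes 63.6 ± 1.19 (SD, n = 3). Within replicates the members' median was higher by 4.91, 1.95 and 9.27 points. The signal is that of the authors' peak caller, on a scale that is not named, and it was used within a list only. Read depth behind each value is unknown.

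**Figure D1:**
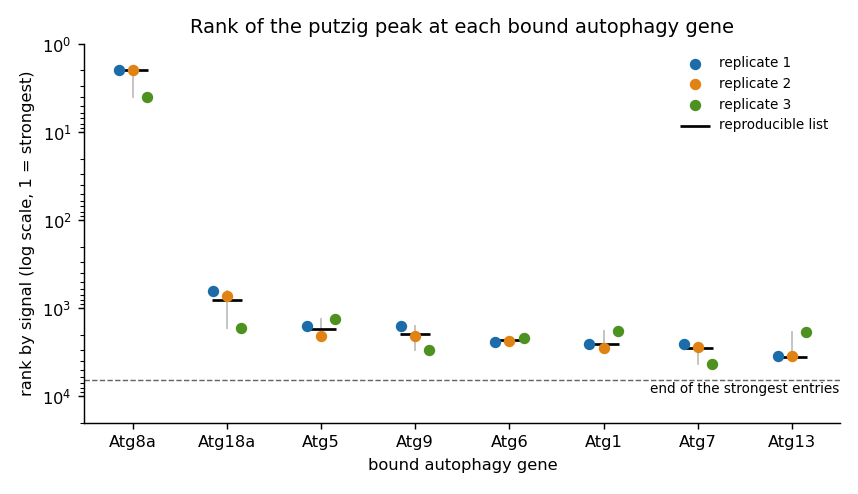
Rank of the peak at each bound autophagy gene by signal, on a log axis with the strongest at the top. Dots are the 3 replicates' own lists of 30000 entries, black bars the reproducible list, and the dashed line the end of the 6522 strongest entries. Atg8a lies at rank 2, 2 and 4, and the other 7 genes between rank 640 and 4291, with Atg18a the highest of them in replicates 1 and 2.

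Atg8a encodes the fly counterpart of mammalian LC3 and GABARAP, the protein that is attached to phosphatidylethanolamine on autophagosomes, and Atg8b is its copy, known for expression in the male germline. From the annotated coding sequences, the proteins have 121 and 120 residues and are identical at 96 of 118 aligned positions (81.4%). Atg8a has 3 coding exons and Atg8b 1. Their promoters are shown because Atg8a had a reproducible summit there and Atg8b had none. The sequence is as the RefSeq genome (Release 6, the dm6 assembly) reads, 5′ to 3′ on the gene's strand. It covers 220 bases before the first annotated TSS and the first 30 from it. Capitals mark GGTCACAC on either strand (Motif 1, an element of housekeeping promoters). Atg8a lies at chrX:10768309-10768558, minus strand, and Atg8b at chr3R:17725034-17725283, minus strand.
Atg8a: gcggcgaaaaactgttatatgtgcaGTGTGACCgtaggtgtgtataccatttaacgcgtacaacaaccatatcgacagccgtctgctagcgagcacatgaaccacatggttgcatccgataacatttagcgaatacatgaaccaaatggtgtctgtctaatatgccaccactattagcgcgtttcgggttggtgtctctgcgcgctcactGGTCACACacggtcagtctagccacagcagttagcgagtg
Atg8b: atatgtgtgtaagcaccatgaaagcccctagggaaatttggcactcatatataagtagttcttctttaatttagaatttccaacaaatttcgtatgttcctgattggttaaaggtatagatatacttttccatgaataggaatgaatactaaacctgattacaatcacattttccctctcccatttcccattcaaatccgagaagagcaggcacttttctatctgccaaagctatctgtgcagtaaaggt

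The Atg8a peak spanned 875 bp (chromosome X, 10767940 to 10768814), with its summit at 10768430 in intergenic sequence, 92 bp upstream of the Atg8a TSS. Its signal was 5743, 5069 and 2262 in replicates 1, 2 and 3, which made it the second, the second and the fourth strongest entry. In every replicate it stood far above the other 7 bound genes of the 10, at 8.28 ± 0.281 (SD, n = 3) times their median signal and at 4.78 ± 1.28 (SD, n = 3) times the next of them. The summit lay between 2 copies of Motif 1, of which the first bases are 195 and 10 bp upstream of the TSS, and the distal copy is on the other strand. BTBD9, a gene for a BTB domain protein, starts 199 bp away on the opposite strand, with the summit 107 bp upstream of it. The peak therefore cannot be given to either gene alone. In the ranking the entries next to it belonged to Vha55, for part of the proton pump that acidifies lysosomes, with Snx3 (signal 15079, rank 1), and to the ribosomal protein gene RpL30 (signal 12112, rank 3), against 12954 for Atg8a. Vha55 held rank 1 in all replicates, and RpL30 ranks 3, 3 and 10.

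Atg8b had no reproducible summit near it: the nearest lay 5611 bp downstream of its TSS. No replicate listed an entry within 250 bp of either Atg8b TSS, although each list reaches down into background. The pooled list, called from all replicates together, held 1 entry 224 bp downstream of the nearer TSS, with a signal of 61.2 and rank 18402 of 30000. Its −log10 q was 0.425, against the ceiling of 4.12 that every reproducible peak has. In the pooled list the signal of Atg8a was 212 times that of Atg8b (log2 ratio 7.73). That Atg8b entry is at background level, so the ratio sets Atg8a against background and gives no level for Atg8b, and the same holds for a wider window. In the replicates no such ratio exists at 250 bp. At 1000 bp, replicates 1 and 2 list Atg8b at 27.9 and 19.1 and the log2 ratio was 7.87 ± 0.26 (SD, n = 2), higher for Atg8a in both. A two-sided exact sign-flip test of 2 replicates cannot give less than its p = 0.5. Replicate 3 listed nothing within 1000 bp, and there Atg8a was 139 times the lowest signal of the list. Near-identical copies can share reads. The longest identical run shared by the 2 genes with 500 bp to each side was 25 bp, and an effect of such runs on the signal was not tested.

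Atg8a has 3 annotated TSSs. Only the outermost one was bound. Near the second, 1032 bp downstream, each replicate listed a weak entry, 147, 111 and 181 bp upstream of that start, at ranks 6971, 6765 and 7114. All of these fall just below the 6522 strongest, with signals of 85.9, 102 and 40.8 where the last of the strongest entries had 102, 112 and 45.9. The pooled list placed it at rank 6807, outside the reproducible list. The third TSS, 1682 bp downstream, had no entry in any list. On the other side of Atg8a lies another autophagy gene, Tango5, the fly counterpart of the endoplasmic reticulum protein VMP1. Tango5 starts beyond the 3′ end of Atg8a and carried its own peak, with signal 5033 and rank 188. Its signals were 2394, 1993 and 658 in the replicates, below those of Atg8a and above those of the other 7 bound members in each.

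**Figure D2:**
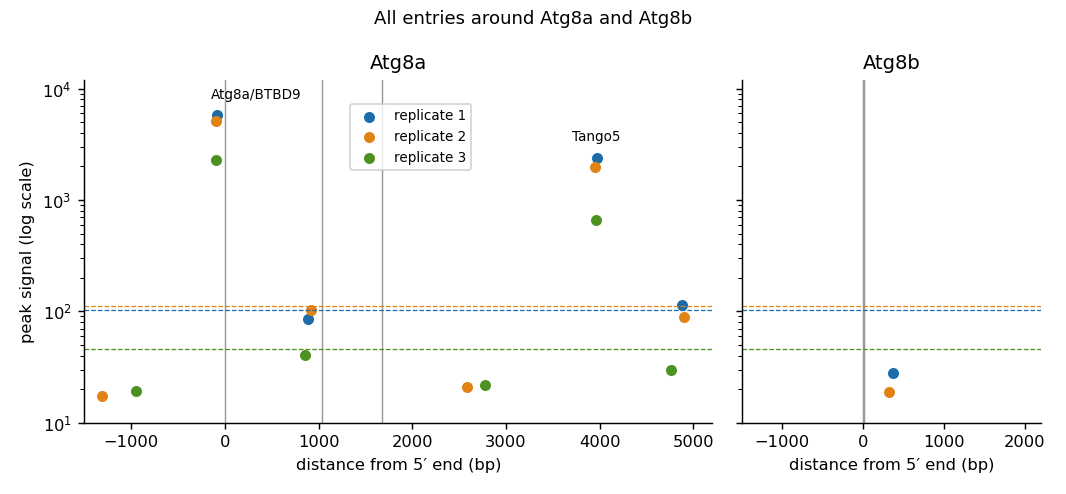
Entries in each replicate's list around Atg8a and Atg8b, by distance from the gene's 5′ end in bp and by signal on a log axis. Grey lines are annotated TSSs and dashed lines the lowest of each replicate's 6522 strongest entries. The Atg8a and Tango5 entries stand far above the dashed lines, the entry before the second Atg8a TSS just below them, and the 2 entries near Atg8b, at 27.9 and 19.1, far below.

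In the kinase complex, Atg1 and Atg13 were bound and Atg101 was not. Atg1 is the serine/threonine kinase that starts autophagy, Atg13 its regulatory partner, and Atg101 a protein that binds Atg13. Atg13 and Atg101 are shown over the same span as above. Of the 8 bound members, Atg13 alone had the Dref site within 100 bp of its summit. The site was also that near the summit in 9 of the 27 other bound autophagy genes. Atg101 is the unbound member of the complex. Capitals mark TATCGATA (the DNA replication-related element, DRE, which Dref recognises). Atg13 lies at chr3R:8349595-8349844, plus strand, and Atg101 at chrX:18791448-18791697, plus strand.
Atg13: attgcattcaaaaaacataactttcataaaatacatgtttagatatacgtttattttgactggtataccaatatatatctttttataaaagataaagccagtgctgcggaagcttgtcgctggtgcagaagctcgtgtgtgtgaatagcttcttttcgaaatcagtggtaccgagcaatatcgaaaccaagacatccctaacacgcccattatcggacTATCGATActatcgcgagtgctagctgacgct
Atg101: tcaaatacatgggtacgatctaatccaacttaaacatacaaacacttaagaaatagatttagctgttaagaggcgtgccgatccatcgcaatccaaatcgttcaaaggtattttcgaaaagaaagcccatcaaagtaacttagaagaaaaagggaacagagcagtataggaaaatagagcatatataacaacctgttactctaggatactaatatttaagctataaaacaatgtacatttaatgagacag

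The Atg1 summit (chromosome 3L, peak 12804865 to 12805273) lay in the 5′ UTR, 32 bp downstream of the only TSS, with a signal of 1419. Its signals were 645, 518 and 278 in replicates 1, 2 and 3, at ranks 2526, 2867 and 1836. A stronger reproducible peak stood inside Atg1, 10390 bp downstream of its 5′ end, with signal 2982 and rank 782, in an intron shared with the nested gene CG42709 and with no TSS within 250 bp. The Atg13 summit (3R, peak 8349575 to 8350026) lay in intergenic sequence 30 bp upstream of the TSS, with a signal of 956. It had signals of 448, 405 and 274 at ranks 3467, 3530 and 1887, so replicate 3 placed it higher than the other two. The DRE of Atg13 covers its TSS, starting 2 bp upstream.

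Atg101 lay apart from both. Its TSS sits in an intron of S6KL, a kinase gene on the same strand, and the nearest reproducible summit was 3204 bp upstream. None of the replicate lists nor the pooled list held an entry within 250 bp of the Atg101 TSS, and the nearest pooled entry, 826 bp upstream, had a signal of 60.6 and rank 18652. Among the 2474 protein-coding genes whose 5′ end lies inside another protein-coding gene, 31.0% were bound. The other such member, Atg5, inside an intron of CG1677, was bound.

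The phosphoinositide genes Atg6 and Atg18a were both bound. Atg6, the counterpart of mammalian Beclin 1, is a subunit of the kinase complex that makes phosphatidylinositol 3-phosphate, and Atg18a, a WIPI family protein, binds that lipid. At Atg18a the summit (3L, peak 8186532 to 8187212) lay between both of its TSSs, 52 bp downstream of the first and 86 bp upstream of the second, with a signal of 2949, the second highest of the members. Replicates 1, 2 and 3 gave 1461, 1217 and 303, at ranks 640, 734 and 1663. The gene ERR, for the estrogen-related nuclear receptor, starts 186 bp upstream of the first Atg18a TSS on the opposite strand. At Atg6 the summit (3R, peak 24050616 to 24051051) lay 11 bp downstream of the TSS with a signal of 1544, and the replicates gave 671, 633 and 241. Ranks of 2422, 2329 and 2169 made Atg6 the member with the narrowest range of ranks apart from Atg8a. Its annotated TSS is 1 bp from that of Pisd on the opposite strand, the gene of the enzyme that makes phosphatidylethanolamine in mitochondria, so 1 summit serves both starts.

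Atg9, Atg5 and Atg7 completed the bound members. Atg9 is the membrane protein of the vesicles that seed autophagosomes, Atg7 the activating enzyme of both conjugation reactions, and Atg5 the protein that Atg12 is joined to. The Atg5 summit (X, peak 7323603 to 7323983) lay 29 bp upstream of its TSS with signal 1937, and the replicates gave 933, 699 and 362 at ranks 1590, 2051 and 1328. The Atg9 summit (2R, peak 16294002 to 16294611) lay 47 bp upstream, at the same base in each replicate. Its signal was 1789 in the reproducible list and 935, 688 and 176 in replicates 1, 2 and 3. CG7747 starts 270 bp from Atg9 on the opposite strand, with the summit 223 bp upstream of it. Atg7 is the member whose call rests most on the rule. Its summit (2R, peak 18624979 to 18625406, signal 1272) lay 205 bp upstream of the Atg7 TSS and exactly on the TSS of Sec6, an exocyst subunit gene on the opposite strand. The replicates placed it 189, 201 and 238 bp upstream of Atg7, with signals of 639, 544 and 103. With a window of 100 bp, or with each summit given to its nearest TSS only, Atg7 was unbound and 7 of 10 members remained, while the share of all protein-coding genes bound was 35.0% and 36.1%.

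**Figure D3:**
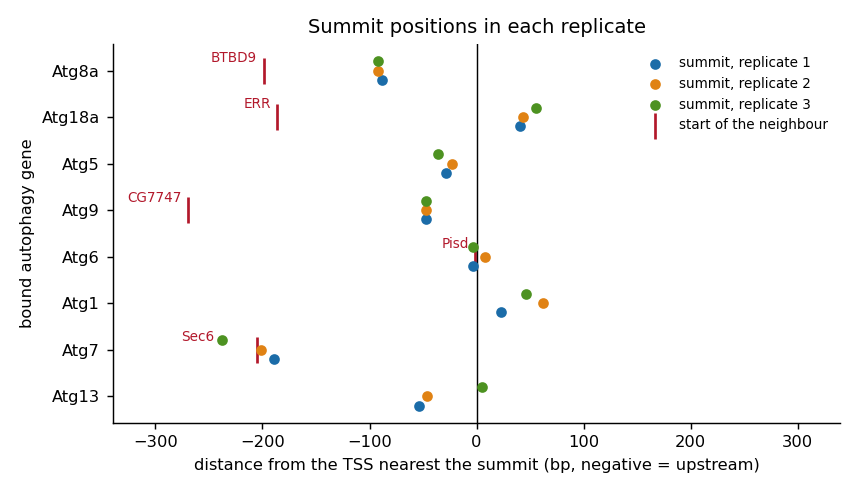
Distance in bp of each replicate's summit from the nearest TSS of the gene, negative upstream, for the 8 bound autophagy genes. Red marks are the starts of neighbours on the opposite strand that share the peak. Atg7 summits lie around the start of Sec6, and the Atg9 summits lie at 47 bp upstream in all 3 replicates.

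By position in the reproducible list, 5 of the 8 summits lay upstream of the nearest TSS of their gene and 3 in the 5′ UTR. The side varied between replicates at Atg6, 3 bp upstream in replicates 1 and 3 and 8 bp downstream in replicate 2. Atg13 lay 5 bp downstream in replicate 3 and upstream in the other replicates. The median offset was -29.5 bp, against -44 bp for all bound protein-coding genes, of which 86.4% had the summit upstream. Over the replicates the members' median was -30.7 ± 9.83 bp (SD, n = 3) and that of all bound genes -42.3 ± 5.51 bp (SD, n = 3), with the members' median less far upstream in 3 of 3 replicates. Within replicates the difference between the medians was 8, 10.5 and 16.5 bp (mean 11.7 ± 4.37, SD, n = 3). These medians are of signed offsets, in which downstream summits count against upstream ones, so they do not measure closeness to the TSS. In 5 of the 8 genes (Atg6, Atg7, Atg8a, Atg9 and Atg18a) the summit lay within 250 bp of a TSS of another protein-coding gene, always on the opposite strand. Sharing with a gene of any type, coding or not, on either strand, held for 41.4% of all bound protein-coding genes. Counted in that way, the members with a shared peak were the same 5.

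The order of the members was stable in part. Atg8a ranked above Atg18a in 3 of 3 replicates with no overlap in rank. Atg18a ranked above Atg9, Atg6, Atg1, Atg7 and Atg13 in 3 of 3 replicates, with no overlap for the last 4 of these. Atg5 ranked above Atg6, Atg1, Atg7 and Atg13 in 3 of 3, without overlap for Atg6 and Atg7. Each of the 6 neighbouring pairs in the rest of the order (Atg18a, Atg5, Atg9, Atg6, Atg1, Atg7, Atg13) was in that order in 2 of 3 replicates, and the ranks within each pair overlapped. Replicate 3 reversed 4 of the 6 pairs, and replicates 1 and 2 reversed 1 each. The shift of a peak was taken as the log2 ratio of its rank in replicate 3 to the geometric mean of its ranks in replicates 1 and 2. The 3 members with a summit near their own TSS alone ranked higher in replicate 3, with shifts of -0.89 (Atg13), -0.55 (Atg1) and -0.44 (Atg5). Of the 5 with a shared peak, 4 ranked lower, with shifts of 1.28 (Atg18a), 1.00 (Atg8a), 0.71 (Atg9) and 0.70 (Atg7), and Atg6 had -0.13. The shift of Atg8a is only a move from rank 2 to rank 4, since a ratio of ranks magnifies small moves at the top of a list. Across 5052 peaks at TSSs found in all lists, the median shift was -0.06 at the start of 1 gene and 0.24 at the starts of 2 or more genes. GC content over the summit and 150 bp to each side ranged from 34.6% (Atg9) to 48.5% (Atg8a), and what moves peaks in replicate 3 was not tested.

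**Figure D4:**
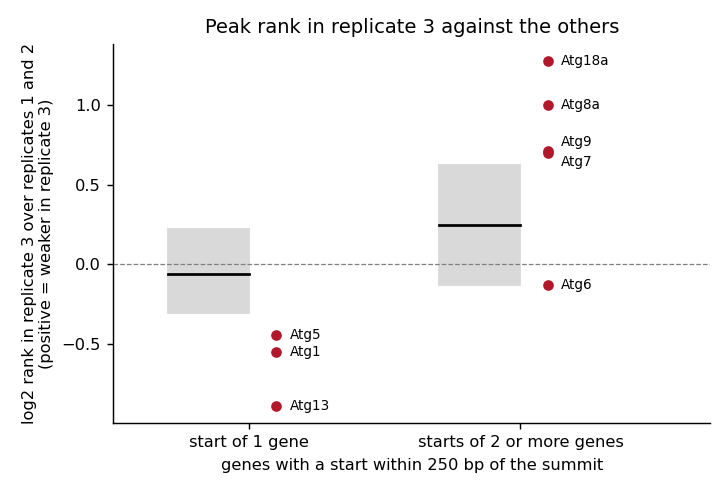
Log2 ratio of a peak's rank in replicate 3 to its mean rank in replicates 1 and 2, positive where the peak was weaker in replicate 3. Grey boxes span the quartiles of all 3760 and 1292 peaks at TSSs with a black line at the median, and red dots are the bound autophagy genes. Atg5, Atg1 and Atg13 lie below 0, and 4 of the 5 members with a shared peak lie above it.

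The DRE was in 1 of the 8 windows of 100 bp to each side of the summit, that of Atg13, and in 16.2% of the 5486 windows at TSSs. Motif 1 was in 2 of the 8, those of Atg7 and Atg8a, and in 14.7% of all. CGATA, the core of the site of the insulator protein BEAF-32, which the DRE contains on both strands, was in 3 of the 8 (Atg5, Atg8a and Atg13) and in 55.0% of all. CACGTG, the core of the site of Mitf, was in none of the 8 and in 3.37% of all. The E-box CAGCTG was in 2 windows, of Atg6 and Atg9, and in 20.1% of all, and TATAAAA in 1, of Atg9, and in 11.8% of all. All were searched on both strands. In the promoters of all 10 genes, from 250 bp before to 50 bp after the 5′ end, the DRE occurred in Atg7 and Atg13, and Motif 1 in Atg7 and Atg8a. Of all 13945 such promoters 9.36% held the DRE and 7.70% Motif 1. Of the 28 other autophagy genes, 10 held the DRE in the promoter and 2 held Motif 1. In summit windows of 100 bp to each side, 9 of their 27 held the DRE and 3 held Motif 1. The shares of all such windows were the 16.2% and 14.7% above. In Atg7 the DRE starts 17 bp upstream of the TSS, more than 100 bp from the summit. Neither element was in the promoters of the unbound Atg8b and Atg101, nor of the bound Atg1, Atg5, Atg6, Atg9 and Atg18a. CGATA was in 6 of the 10 promoters, that of Atg8b included, and in 47.4% of all. Windows of Atg1, Atg6, Atg9 and Atg18a held none of DRE, Motif 1 and CGATA.

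Of 28 other genes of the pathway, listed with earlier results of these data known, 27 were bound, against the 42.6% of all protein-coding genes. They comprise the remaining kinase complex, lipid kinase and conjugation genes, cargo receptors, fusion factors, Tango5 and the transcription factor gene Mitf. The unbound one was Atg10, the enzyme that joins Atg12 to Atg5, with the nearest reproducible summit 6719 bp upstream. All 11 genes for fusion with lysosomes were bound, from Vps16A (signal 4441, rank 288), of the HOPS tethering complex, and the SNARE genes Vamp7 (3805) and Syx17 (3310), down to lt (363, rank 5538). Next to these stood Rab7 at 3130, the cargo receptor gene ref(2)P, the fly counterpart of p62, at 2734, the tether gene Epg5 at 2598 and bchs at 2532. Low in the list were Atg16 (313, rank 5844), Mitf (329, rank 5722), the lipid kinase gene Pi3K59F (380, rank 5451) and Uvrag (390, rank 5404). The 27 had a median percentile of 53.6, below the 63.8 of all bound genes and the 67.4 of the 8 members. A summit in the strongest peaks of all replicates was found for 23 of them, and for 90.7% of all bound protein-coding genes. Replicate 3's own strongest entries reached 22 of the 28 genes, against 27 and 26 in replicates 1 and 2. Of all protein-coding genes, the strongest entries of replicates 1, 2 and 3 reached 42.4%, 42.3% and 41.7%.

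**Figure D5:**
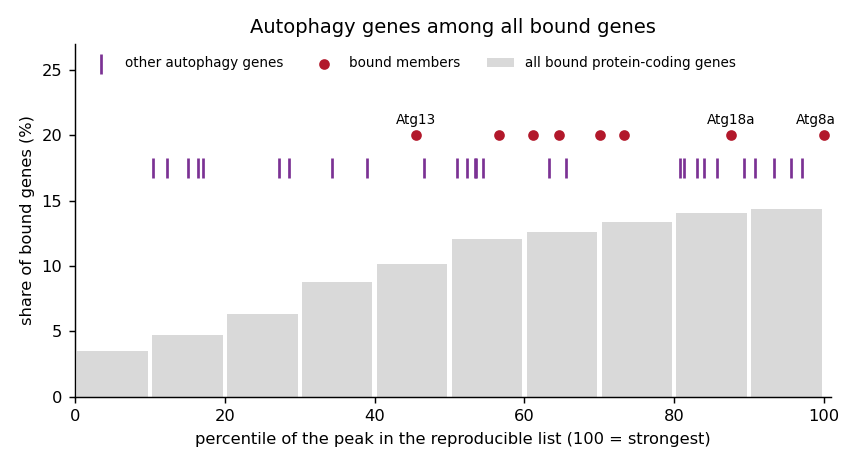
Percentile of each gene's peak in the reproducible list. Bars give the share of all 5939 bound protein-coding genes in each of 10 equal bins of the list, red dots the 8 bound members and purple marks the 27 other bound autophagy genes. Members run from 45.5 (Atg13) to Atg8a near the top, and the other genes from 10.4 to 97.1.

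Unlike the Atg8 copies, the members of the pairs Atg18a and Atg18b, and Atg4a and Atg4b, were both bound. Atg18b, whose protein is identical to Atg18a at 43.7% of aligned positions, had signals of 210, 151 and 170 against the 1461, 1217 and 303 of Atg18a. Atg18a was higher in 3 of 3 replicates, with a log2 ratio of 2.22 ± 1.20 (SD, n = 3, two-sided exact sign-flip p = 0.25, the smallest that 3 replicates can give). The Atg18a summit is shared with ERR and so cannot be given to Atg18a alone, while the Atg18b summit is shared with no gene. With a window of 1000 bp the log2 ratio was -0.03 ± 0.53 (SD, n = 3). In that window a summit 681 bp from the Atg18b TSS, at the start of CG8677, was counted. For Atg4a and Atg4b, the protease genes that process Atg8, the signals were 260, 293 and 124 for Atg4a and 452, 397 and 16.2 for Atg4b. The last of these is an entry at rank 29974, in the background of replicate 3. The log2 ratio of 0.57 ± 2.06 (SD, n = 3, two-sided exact sign-flip p = 1) was within the spread between replicates. The Atg4b summit lay 248 bp upstream of its TSS, at the edge of the window and shared with Hibch. With 1000 bp, replicate 3 gave 165 for Atg4b and the log2 ratio was -0.55 ± 0.22, lower for Atg4a in 3 of 3 replicates (exact p = 0.25).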

How the data were processed

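The authors deposited 5 peak lists in dm6 coordinates, per the file headers and notes: 3 of single replicates, 1 of all replicates pooled and 1 reproducible list. Per the deposited notes, each replicate's list was made from its own alignment and a control alignment shared by the replicates, and the reproducible list from the other 4. Which aligner and peak caller were used is not given in the sources used here. Per the labels, sonicated fragments were of 200 to 800 bp. Column 7 is the signal of the authors' caller as deposited, and column 9 a −log10 q value that reaches a ceiling, so ranks used the signal. Lists other than the reproducible one hold 30000 entries, with background included. All 6522 reproducible entries are the strongest of the pooled list, so they are not independent of the replicates. Depth is unknown.

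TSSs came from Ensembl release 115 and sequence from the RefSeq genome. No peak passed a chromosome end, and 99.8% of 30593 start codons read ATG. All 38 symbols matched, 1 (Vps34, Pi3K59F) through an older name. Python 3.11.15 with pandas 2.3.3, scipy 1.17.1 and Biopython 1.88 was used, and the assignment was tested on simulated data. Counts are set beside the background, without set tests. Only duplicate pairs were tested, by exact sign-flip tests over replicates. The Atg8 ratio came from the pooled list instead of the replicates, since no replicate lists Atg8b within 250 bp. The members and lists were chosen with earlier results of these data known. Named were all members, genes sharing their peaks, the pathway list (with values for duplicates, up to 8 by signal, and the weakest, chosen after their values were seen) and the entries ranked next to Atg8a. Motifs other than the DRE and Motif 1, the use of the pooled Atg8 ratio, and the backgrounds of nested genes and of genes listed in every replicate were also added after seeing the data.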

Additional observations from a re-analysis of the deposited data

How the results depend on the processing

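The count of bound members was 7 to 9 over the alternatives tried. It was 9 in the whole pooled list, background included, which added Atg8b (55.9% of all protein-coding genes), and 7 with the strongest 3261 entries, which dropped Atg13 (28.3%). Leaving out a replicate could not lower it, since the reproducible list was not remade and all 8 summits lie in a strongest peak of every replicate. The strongest 3261 entries gave 17 of the 28 other autophagy genes and 3950 of the 13945 protein-coding genes (28.3%). The whole reproducible list gave 27 of the 28, 5939 of the 13945 and, among the nested genes, 768 of 2474. The median percentile of bound members was 70.1 with a TSS window of 100 bp and with the nearest TSS only, 40.3 among the strongest entries and 92.3 in the whole pooled list, both on their own list lengths. The median offset lay between -29.5 and -29 bp under every alternative. The log2 ratio of Atg8a to Atg8b was 13.17 for ranks in the pooled list, and 7.69 to 8.05 within 1000 bp when 1 replicate was left out. The DRE was in 2 promoters against 1 summit window, and Motif 1 in 1 window of 50 bp to each side. No cause of these changes was tested beyond the change of list and window itself. No paired comparison of groups was possible because there is 1 group of samples and so no second group to block by replicate number. Genes were compared within replicates, and the tests of duplicate genes were paired by replicate. Replicates come from 1 line, so their spread is that between embryo collections or libraries. Without depths, a missing entry says only that no peak was listed.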
